A study of Mus musculus with 11 samples.

Results

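The proteasome was followed through 45 genes in cultured neural stem cells (NSCs) from the hippocampus of mouse embryos at E14.5. The 45 genes were chosen by name from the 53801 genes listed in each library, as the protein-coding genes called Psma, Psmb, Psmc, Psmd, Psme, Psmf or Psmg followed by a number, without the inducible subunits Psmb8, Psmb9 and Psmb10. Of these, 16 encode the core particle (8 Psma and 8 Psmb genes), 17 encode the regulatory cap (6 Psmc and 11 Psmd genes), 5 encode activators or an inhibitor of the core (4 Psme genes and Psmf1) and 7 encode assembly factors (4 Psmg genes with Psmd5, Psmd9 and Psmd10). Cultures received 4HBP at 1 µM, or its solvent EtOH (vehicle), for 7 days before RNA was sequenced, in proliferation medium with EGF, bFGF and B27 (3 libraries with each) or in differentiation medium without growth factors and with more B27 (3 libraries with 4HBP and 2 with vehicle). All cultures were primary cells, and the labels give no genotype, strain, donor, litter or batch. The labels name the compound 4-hydroxybenzoic acid, whereas the paper names it 4-hydroxybenzophenone. Nothing states that replicates came from separate cultures, so p-values measure the spread between these libraries, which may be technical.

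The proteasome degrades proteins that carry a chain of ubiquitin. Its barrel-shaped core holds the cutting sites inside, between outer rings of Psma subunits and inner rings of Psmb subunits. The cap recognises ubiquitin, removes it, unfolds the protein with a ring of Psmc ATPases and feeds it into the core. Psme proteins can bind the core in place of the cap, and dedicated chaperones build the core and the base of the cap and then leave. In dividing stem cells the proteasome removes cell cycle regulators, and in all neural cells it serves protein quality control.

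Library totals were between 20822921 and 23438463 expected counts, and 3 counts, taken as the smallest detectable amount, correspond to 0.128 to 0.144 CPM (counts scaled to the library total); this limit covers counting error only. The spread between replicates was larger in proliferation medium (biological coefficient of variation 0.117) than in differentiation medium (0.0371). In proliferation medium the library 4HBP replicate 3 stood apart from the other two 4HBP libraries, with a mean chi-square per gene of 25.7 and 23.1 against them, whereas these differed from each other by 5.63. Summed levels of the neural stem cell markers (7 of 7 detected) ran from 7096 to 8280 normalized CPM in proliferation medium and from 4080 to 4220 in differentiation medium. Oligodendrocyte lineage markers summed to between 1754 and 3328 and to between 6763 and 7083, respectively. Markers of microglia summed to at most 3.61, those of endothelium and mesenchyme to at most 0.837, and both globin genes were at 0 in all 11 libraries.

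Of the 45 genes, 43 passed the filter on low counts and were tested. The other two were the core genes Psma8, which is known from testis and lay between 0 and 0.0845 normalized CPM, and Psmb11, which is known from thymus and lay between 0.131 and 0.308. Normalized CPM are rounded expected counts, as CPM of the library total scaled by TMM, and TPM are the deposited levels per transcript length.

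The promoters of 4 members are shown: Psme1 and Psmc6, which fell most between the media among the members with a promoter in the table, Psmb4, which rose most, and Psmb5, the catalytic subunit that rose and carries a match to the motif of the Nfe2l factors described below. The windows are the 250 bases before the start of each gene in RefSeq (GRCm38.p6), written 5′ to 3′ on the strand of the gene. Capitals mark matches, on either strand, to 4 motifs that were searched: the core of the antioxidant response element (TGACNNNGC), the NF-Y box (CCAAT), the GC box (GGGCGG) and the C/EBP-ATF element (TGATGNAA). None of the 4 occurs in the Psmb4 window. The Psme1 window is chr14:55578244-55578493 (plus strand) and that of Psmc6 is chr14:45329574-45329823 (plus strand). The Psmb5 window is chr14:54617996-54618245 (minus strand) and that of Psmb4 is chr3:94886959-94887208 (minus strand).
Psme1: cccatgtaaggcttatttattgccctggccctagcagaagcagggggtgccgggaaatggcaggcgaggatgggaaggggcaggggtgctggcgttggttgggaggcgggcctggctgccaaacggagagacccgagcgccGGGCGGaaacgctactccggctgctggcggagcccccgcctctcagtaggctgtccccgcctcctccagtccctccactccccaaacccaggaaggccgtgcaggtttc
Psmc6: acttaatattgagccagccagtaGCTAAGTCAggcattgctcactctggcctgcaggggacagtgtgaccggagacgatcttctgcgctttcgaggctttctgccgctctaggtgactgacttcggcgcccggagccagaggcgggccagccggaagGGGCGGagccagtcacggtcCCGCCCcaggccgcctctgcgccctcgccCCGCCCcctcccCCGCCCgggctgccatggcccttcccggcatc
Psmb5: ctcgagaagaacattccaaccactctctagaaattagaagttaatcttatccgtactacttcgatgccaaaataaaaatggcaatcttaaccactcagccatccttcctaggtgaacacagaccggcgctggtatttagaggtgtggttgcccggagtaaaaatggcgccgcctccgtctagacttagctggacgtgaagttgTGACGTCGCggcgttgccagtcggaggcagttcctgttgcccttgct
Psmb4: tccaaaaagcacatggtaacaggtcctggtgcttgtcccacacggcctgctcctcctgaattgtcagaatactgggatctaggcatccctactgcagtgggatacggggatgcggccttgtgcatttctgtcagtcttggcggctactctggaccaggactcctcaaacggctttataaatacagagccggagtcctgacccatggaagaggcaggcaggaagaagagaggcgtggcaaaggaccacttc

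A total of 37 members had a promoter in the RefSeq table, without Psma8, Psmb1, Psmb2, Psmb7, Psmc3, Psmd3, Psmd7 and Psmg2. The antioxidant response element core, which is bound by factors of the Nfe2l family, was present in 5 of the 37 member promoters (13.5%) and in 11.5% of the 27025 genes of the table. These 5 were Psmb5, Psmb6, Psmc6, Psmd9 and Psmd12. The GC box was present in 21 of 37 (56.8%) against 35.4% of all genes, the NF-Y box in 13 of 37 (35.1%) against 37.5%, and the C/EBP-ATF element in 1 of 37 (2.7%) against 3.91%. These are matches of letters within 250 bases and not bound sites, and the GC box is common in promoters rich in G and C, which was not compared here.

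On the scale of TPM, core and cap genes formed the upper part of the order and the assembly factors the lower part. Averaged over the 11 libraries, Psmb6, the caspase-like catalytic subunit, had the highest level (241 TPM), followed by the cap ATPases Psmc3 (225 TPM) and Psmc1 (201 TPM) and the core genes Psmb1 (197 TPM) and Psmb2 (197 TPM). The lowest levels among the tested genes were those of the assembly factors Psmg3 (13.4 TPM) and Psmd10 (15.3 TPM). The activator Psme3 reached 100.4 TPM, and the other genes of its class lay between 26.1 (Psme4) and 52.8 TPM (Psme1). Within the core, the highest of the 14 detected genes was 2.99 to 3.40 times the lowest in each library, and within the cap the ratio was 2.35 to 4.22. Subunits of the core are built into the particle in equal number, whereas their transcripts differed by these ratios.

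The order changed with the medium. In vehicle cultures Psmb4, a structural subunit of the inner ring, was 24th of 45 in proliferation medium (98.3 TPM) and 4th in differentiation medium (201.7 TPM). The catalytic subunit Psmb5 moved from 31st (69.2 TPM) to 20th (117.7 TPM), and Psma3 of the outer ring from 27th (79.7 TPM) to 14th (134.6 TPM). In the other direction Psmc3 moved from first (281 TPM) to 8th (177 TPM) and Psmc1 from second (240.3 TPM) to 12th (159.6 TPM). The effective length, by which RSEM divides the counts, also differed for these ATPases, from a mean of 1036 to 1366 bases for Psmc1 and from 886.5 to 1010 bases for Psmc3, so their TPM combine fewer counts with a longer estimated transcript.

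**Figure D1:**
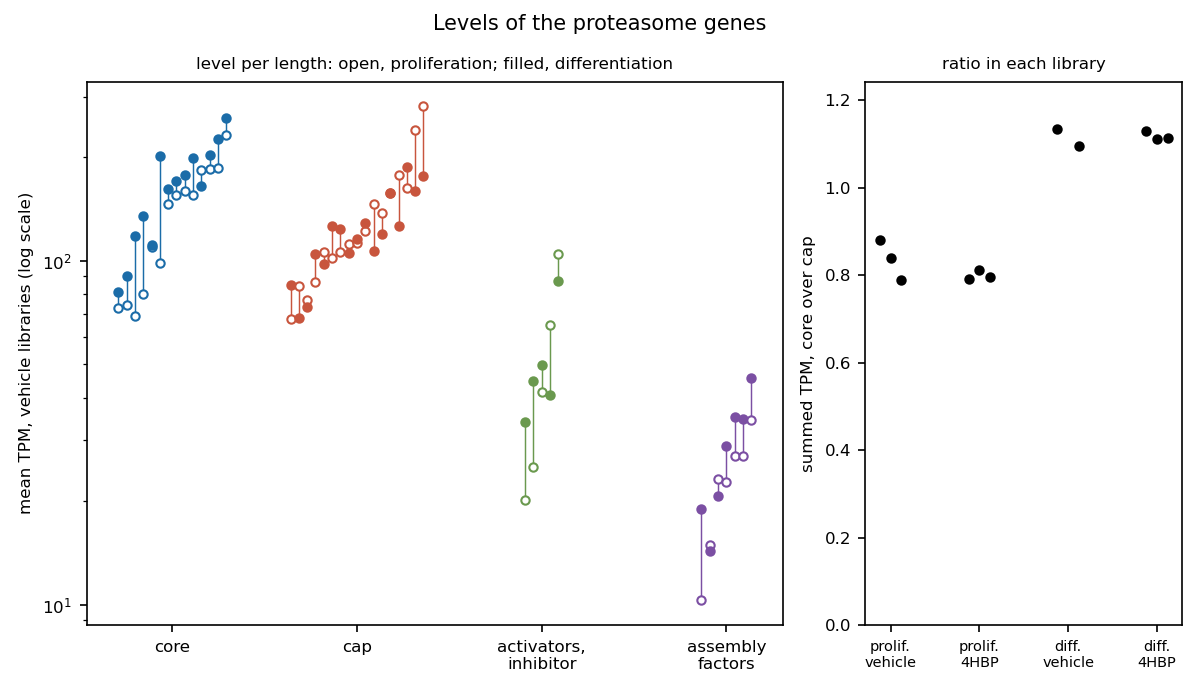
The left panel plots the mean TPM of each of the 43 detected genes on a log axis, by class, with open points for the 3 proliferation vehicle libraries and filled points for the 2 differentiation vehicle libraries of the same gene. The right panel plots summed core TPM over summed cap TPM in each library, where the proliferation libraries lie between 0.789 and 0.882 and the differentiation libraries between 1.10 and 1.13.

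The balance of core to cap transcripts separated the media without overlap. Summed core TPM over summed cap TPM was 0.882, 0.839 and 0.789 in the proliferation vehicle libraries and 0.792, 0.813 and 0.796 with 4HBP. It was 1.13 and 1.10 in the differentiation vehicle libraries and 1.13, 1.11 and 1.11 with 4HBP. All 5 differentiation libraries were therefore above all 6 proliferation libraries, and within each medium the ranges with and without 4HBP overlapped. The same ratio in normalized CPM, which uses no length, ran from 0.457 to 0.514 in proliferation medium and from 0.617 to 0.641 in differentiation medium. This ratio does not depend on the scaling of the libraries. Summed over genes, the core had 1906 ± 166 TPM (SD, n = 3) in proliferation vehicle and 2298 ± 19.8 TPM (SD, n = 2) in differentiation vehicle libraries, and the cap had 2279 ± 158 and 2061 ± 32.5 TPM.

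The first comparison asked how the proteasome genes differ between differentiation and proliferation medium in vehicle cultures. Of the 43 tested members, 22 fell and 8 rose (edgeR quasi-likelihood test, Benjamini-Hochberg adjusted p under 0.05 over 15920 genes), while 30.6% of all genes fell and 30.8% rose. Of the 17 cap genes, 13 fell and none rose on the TMM scale (median log2 fold change -0.45), whereas on the TPM scale described below 4 were lower and 5 higher (median -0.014). In the core, 5 of 14 genes fell and 3 rose (median -0.22), against 0 and 7 on the TPM scale (median 0.22). Activators and inhibitor gave 2 lower and 2 higher of 5, and assembly factors gave 2 lower and 3 higher of 7. The median over all 43 members was -0.22 and that over all genes was 0.026. All 17 cap genes had a log2 fold change below 0 on the TMM scale, from -0.92 to -0.05, as had 7714 of all 15920 genes.

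The direction of these counts depended on how the libraries were scaled. When library sizes were set on the TPM scale, as the sum of counts over effective length, the median of all genes moved from 0.026 to 0.48, a shift of 0.45, and 5 members were lower and 19 higher. Of all 16202 genes tested on that scale, 2026 were lower and 9011 higher, so most called genes were higher there. The members' median became 0.21 and stayed below that of all genes. The mitochondrial gene mt-Atp8, with an effective length of 18.6 to 23.6 bases, took 13.0% to 15.9% of the TPM in proliferation medium. In differentiation medium it took 4.48% to 4.79% at 34.1 to 45.3 bases, and its part in the shift was not tested. Lower on both scales were Psme1, Psmc3, Psmc6, Psmd1 and Psmc1, and higher on both were all 8 members that rose. Of the other members that fell on the TMM scale, 16 did not pass on the TPM scale, all 5 core genes among them, and the cap gene Psmd8 was higher, as were the cap genes Psmc2, Psmd3, Psmd6 and Psmd13, which had not passed on the TMM scale. The TPM scale was chosen after seeing the data.

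**Figure D2:**
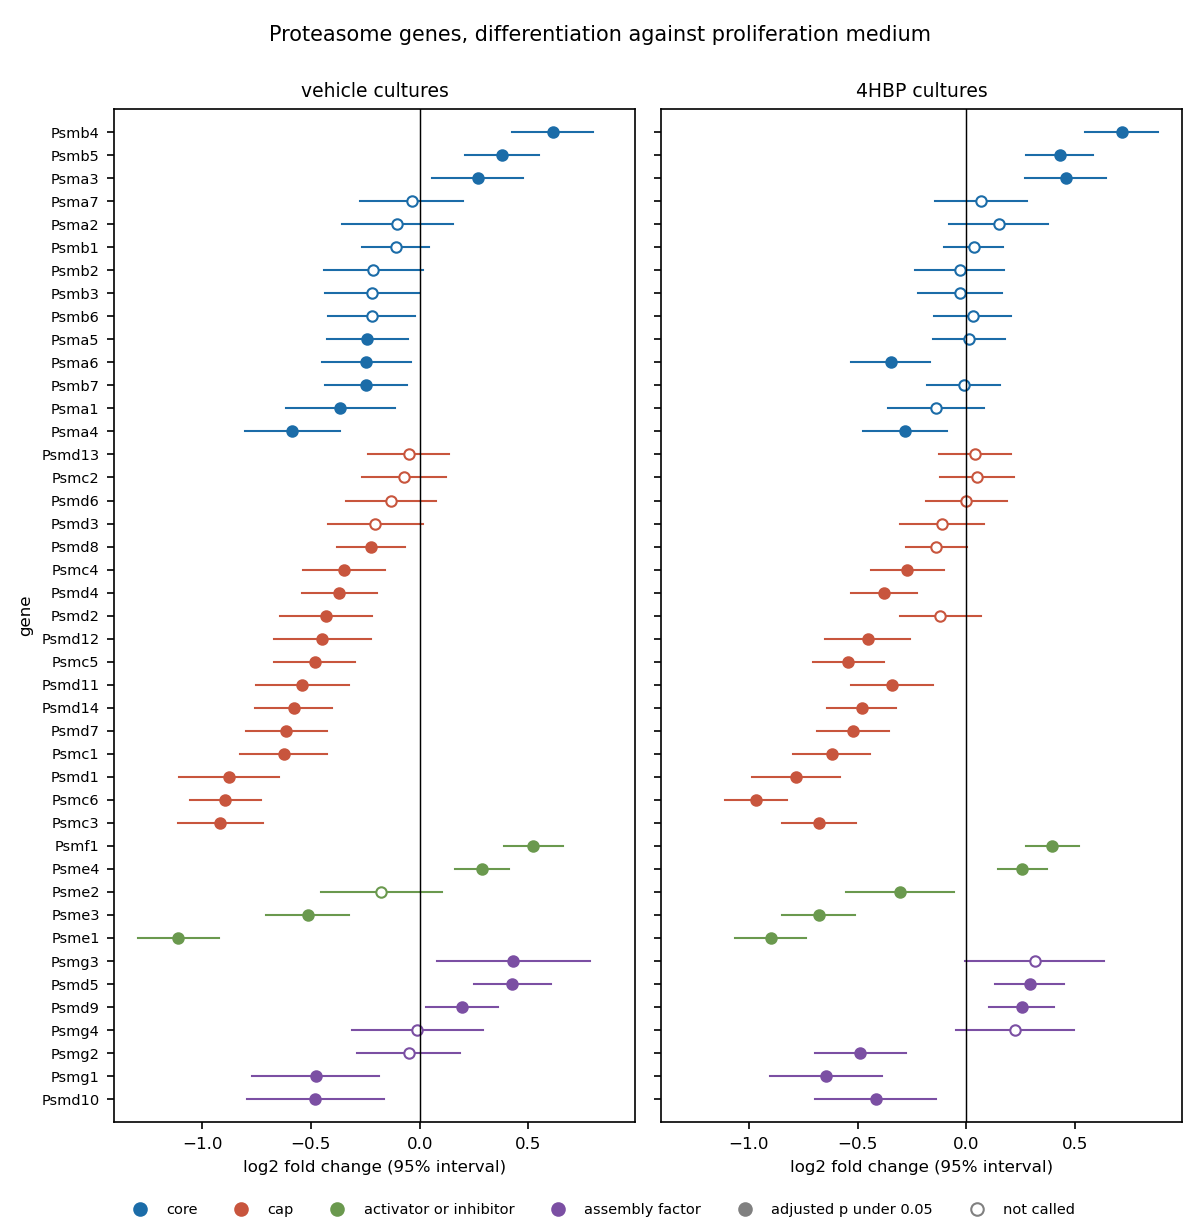
Points give the log2 fold change of the 43 tested genes between differentiation and proliferation medium, in vehicle cultures on the left and in 4HBP cultures on the right, and lines are 95% intervals. Colours mark the classes and filled points an adjusted p under 0.05 on the TMM scale, where the cap genes lie at or below 0 in the left panel, from -0.92 to -0.05.

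Psme1, an interferon-inducible subunit of the activator that replaces the cap, differed most. It measured 43.6, 45.4 and 43.8 normalized CPM in the proliferation vehicle libraries and 22.1 and 18.9 in the differentiation vehicle libraries. The groups did not overlap. Its log2 fold change was -1.11 (SE 0.086, adjusted p = 2.31e-07). Its partner Psme2 measured 29.3, 21.1 and 21.1 normalized CPM in proliferation and 21.1 and 21.0 in differentiation vehicle libraries, with groups that overlapped (log2 fold change -0.18, adjusted p = 0.251). Between the media in vehicle cultures, groups did not overlap for 27 lower and 8 higher members. The same held for 5905 lower and 6248 higher genes of all 15920, so it is common in this contrast.

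Among the cap ATPases, Psmc3 measured 204.6, 177.6 and 197 normalized CPM in proliferation and 101.5 and 102.9 in differentiation vehicle libraries (log2 fold change -0.92, SE 0.090, adjusted p = 1.90e-06). Psmc6 measured 149.8, 139.1 and 157.1 against 74.9 and 85.1 (log2 fold change -0.89, SE 0.075, adjusted p = 4.75e-07). Psmc1 measured 190.5, 180.4 and 208 against 121.6 and 128.4 (log2 fold change -0.63, SE 0.093, adjusted p = 6.89e-05). In each of the 3 ATPase genes the lowest proliferation library was above the highest differentiation library. Psmc2 was the only ATPase of the 6 that was not called (log2 fold change -0.07, 95% interval -0.26 to 0.12), and Psmc4 and Psmc5 fell by 0.35 and 0.48 on the log2 scale. On the TPM scale Psmc4 (0.088) and Psmc5 (-0.047) were not called and Psmc2 was higher (0.36). Psmd1, the large scaffold of the cap base, measured 314.4, 297.7 and 354.7 in proliferation and 173.5 and 177.5 in differentiation vehicle libraries (log2 fold change -0.88, SE 0.11, adjusted p = 1.24e-05).

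Of the lid of the cap, Psmd14, the enzyme that cuts ubiquitin off, fell by 0.58 on the log2 scale, its partner Psmd7 by 0.61, Psmd11 by 0.54 and Psmd12 by 0.45. The ubiquitin receptor Psmd4 fell by 0.37. These falls are on the TMM scale, and none of these genes was called on the TPM scale (from -0.18 for Psmd7 to 0.066 for Psmd4). The lid genes Psmd13 (-0.05), Psmd6 (-0.13) and Psmd3 (-0.20) did not pass the test on the TMM scale and were called higher on the TPM scale (0.38, 0.30 and 0.23). The estimates therefore spread widely within one complex.

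In the core the 3 catalytic subunits did not move together. Psmb5, the chymotrypsin-like subunit that most proteasome inhibitors target, measured 40.9, 35.2 and 36.2 normalized CPM in proliferation and 48.3 and 49.1 in differentiation vehicle libraries (log2 fold change 0.38, SE 0.079, adjusted p = 0.00105). Psmb7, the trypsin-like subunit, measured 120.3, 99.97 and 105.5 against 90.9 and 92.1 (log2 fold change -0.25, SE 0.087, adjusted p = 0.0257), a call lost without proliferation vehicle replicate 1 (adjusted p = 0.101) and without either differentiation vehicle library (adjusted p = 0.138 and 0.116). Psmb6 measured 117.6, 99.2 and 104.1 against 96.1 and 87.5 (log2 fold change -0.22, adjusted p = 0.0522). Thus Psmb5 was higher and Psmb7 lower in differentiation medium by the test on the TMM scale, and on the TPM scale Psmb7 gave 0.19 (adjusted p = 0.0793).

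Psmb4 rose most of all members. It measured 66.6, 60.3 and 60.0 normalized CPM in proliferation and 94.2 and 96.1 in differentiation vehicle libraries (log2 fold change 0.61, SE 0.085, adjusted p = 4.12e-05). Psma3 rose from 68.8, 55.7 and 53.9 to 70.8 and 72.3 (log2 fold change 0.27, adjusted p = 0.0283). Psma3 is uncertain, because 16.6% of its 40-base words occur in other genes, mainly in the processed pseudogene Gm13835, which RSEM gave 47.1, 47.8 and 65.9 normalized CPM in proliferation and 23.0 and 21.8 in differentiation vehicle libraries. The sum of both was 115.9, 103.5 and 119.9 against 93.7 and 94.1, which is in the opposite direction. Psmb5 also shares 64.2% of its words, mainly with Gm3375, but that pseudogene had at most 1.01 counts in any library. Psma5 (53.9%), Psme2 (31.0%), Psmd2 (24.1%) and Psmc1 (22.5%) share words too, and the gene that shares most had at most 4 counts in each case.

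Activators and the inhibitor moved in both directions. Psme3, the nuclear activator, measured 167.7, 149.7 and 168.2 normalized CPM in proliferation and 108.6 and 117.8 in differentiation vehicle libraries (log2 fold change -0.52, SE 0.088, adjusted p = 0.000219). Psme4, the large single-chain activator, measured 91.3, 84.7 and 87.9 against 106 and 108.5 (log2 fold change 0.29, SE 0.058, adjusted p = 0.000851). Psmf1, an inhibitor of the core in the test tube, measured 34.9, 35.8 and 35.8 against 50.2 and 51.7 (log2 fold change 0.52, SE 0.062, adjusted p = 1.01e-05). None of these groups overlapped, which was common between the media. On the TPM scale Psme3 was not called (-0.081).

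The assembly factors were present at low levels. Psmg1 and Psmg2 form the chaperone pair of the outer ring. Psmg1 measured 15.6, 12.6 and 13.3 normalized CPM in proliferation and 9.29 and 10.6 in differentiation vehicle libraries (log2 fold change -0.48, adjusted p = 0.00772), a call lost without differentiation vehicle replicate 1 (adjusted p = 0.0911), and Psmg2 measured 16.2, 14.9 and 14.2 against 14.6 and 14.6 (log2 fold change -0.05, adjusted p = 0.712). The second pair, Psmg3 and Psmg4, also differed in its call. Psmg3 measured 4.63, 6.41 and 5.80 against 7.05 and 8.08 (log2 fold change 0.43, adjusted p = 0.0346), a call lost without proliferation vehicle replicate 1 or 3 or differentiation vehicle replicate 2 (highest adjusted p = 0.203). Psmg4 measured 7.56, 6.41 and 6.45 against 7.22 and 6.29 (log2 fold change -0.01, adjusted p = 0.95). On the TPM scale Psmg1 was not called (-0.046), and Psmg2 (0.39), Psmg3 (0.87) and Psmg4 (0.42) were higher.

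Of the chaperones of the cap base, Psmd5 measured 36.3, 38.0 and 43.6 normalized CPM in proliferation and 54.2 and 51.3 in differentiation vehicle libraries (log2 fold change 0.42, SE 0.082, adjusted p = 0.00058). Psmd9 measured 29.7, 27.6 and 26.9 against 30.6 and 33.6 (log2 fold change 0.20, adjusted p = 0.0402), a call lost with DESeq2 (adjusted p = 0.0691), without the filter (0.131), with only the groups compared (0.064) and in 6 of the 11 fits that each left out 1 library (without proliferation vehicle replicate 2 or 3, differentiation vehicle replicate 2 or any differentiation 4HBP library, highest adjusted p = 0.288). Psmd10 measured 12.3, 14.6 and 15.7 against 11.2 and 9.17 (log2 fold change -0.48, adjusted p = 0.012), a call lost without differentiation vehicle replicate 2 (adjusted p = 0.156). The fall of Psmd10 did not pass on the TPM scale (-0.042). Thus 2 of the 3 base chaperones rose, while 5 of the 6 ATPases of the base fell on the TMM scale.

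**Figure D3:**
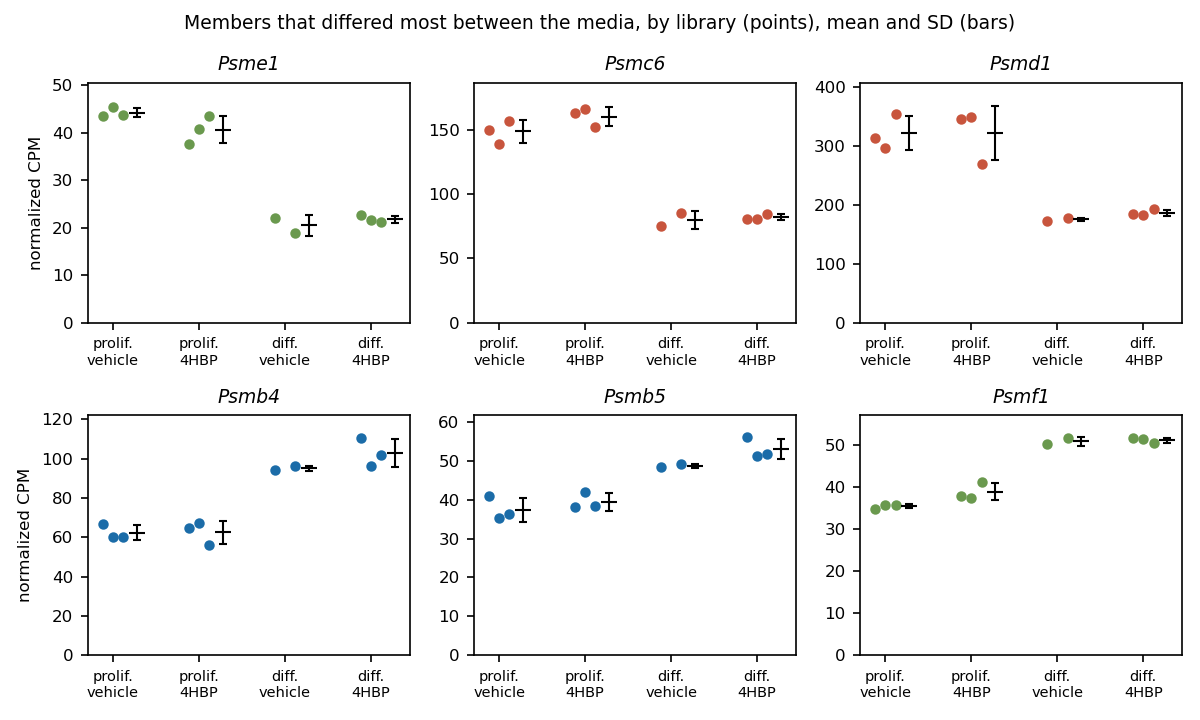
Points give normalized CPM in each of the 11 libraries for 6 genes that changed strongly between the media, with the mean and SD of each group beside them. Psme1, Psmc6 and Psmd1 are lower in all 5 differentiation libraries than in any of the 6 proliferation libraries, and Psmb4, Psmb5 and Psmf1 are higher in all 5.

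The second comparison made the contrast of the media under 4HBP, in other libraries of the same fit. Of the 43 members, 19 fell and 7 rose, while 33.9% of all genes fell and 33.3% rose. By class, 11 of 17 cap genes fell and none rose (median -0.38), 2 of 14 core genes fell and 3 rose (median 0.021), 3 of 5 activators fell and 2 rose, and 3 of 7 assembly factors fell and 2 rose, all on the TMM scale. On the TPM scale 6 members were lower and 24 higher, with a shift of the median of all genes by 0.39. Of all 16202 genes tested on that scale, 2699 were lower and 8687 higher. There the cap had 4 lower and 6 higher genes (median 0.002) and the core had 0 lower and 12 higher (median 0.40). Leaving out the deviating library 4HBP replicate 3 in proliferation medium gave 24 lower and 8 higher.

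The vehicle and 4HBP contrasts compare different libraries but come from one fit of all 11, with shared scaling and spread. Their calls are therefore not independent. On the TMM scale 17 members were lower in both, 7 were higher in both, none was called in opposite directions, 6 were called in vehicle alone, 2 under 4HBP alone and 11 in neither. Of all 15920 genes, 9771 were called in vehicle and 10694 under 4HBP. Genes called alike in both were not counted over all genes on either scale, so no share stands beside these counts. On the TPM scale 5 were lower in both (Psme1, Psmc1, Psmc3, Psmc6 and Psmd1), 18 were higher in both and none was called in opposite directions. The 17 on the TMM scale included 11 cap genes and 2 core genes (Psma4 and Psma6). The largest falls under 4HBP were again of cap and activator genes. Psmc6 measured 163.2, 165.9 and 151.8 normalized CPM in proliferation and 80.7, 80.8 and 84.6 in differentiation 4HBP libraries (log2 fold change -0.97, SE 0.066, adjusted p = 4.75e-08). Psme1 measured 37.7, 40.7 and 43.5 against 22.6, 21.6 and 21.1 (log2 fold change -0.90, SE 0.075, adjusted p = 2.96e-07). These groups lay clear of each other, as did those of the next genes. Under 4HBP this held for 19 lower and 9 higher members, and for 5651 lower and 5737 higher genes of all 15920.

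Psmd1 measured 346.3, 350.1 and 269.1 against 185.3, 183 and 192.7 (log2 fold change -0.78, adjusted p = 7.68e-06). Psme3 measured 198.1, 191.7 and 169.4 against 107, 117.5 and 124.7 (log2 fold change -0.68, adjusted p = 5.24e-06). Psmc3 measured 191, 190.5 and 156 against 109.9, 110.5 and 115.9 (log2 fold change -0.68, adjusted p = 6.40e-06). In Psmd1 and Psmc3 the lowest proliferation library was 4HBP replicate 3, and it was still above all differentiation libraries.

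The members that rose under 4HBP were led by Psmb4, with 64.6, 67.3 and 56.1 normalized CPM in proliferation and 110.4, 96.5 and 101.9 in differentiation medium (log2 fold change 0.72, SE 0.077, adjusted p = 3.11e-06). Psma3, with the same doubt as above, measured 56.7, 62.3 and 54.6 against 82.9, 78.0 and 77.4 (log2 fold change 0.46, adjusted p = 0.000413), and its sum with Gm13835 was 114.8, 119.5 and 100.3 against 107.6, 98.8 and 105.6. Psmb5 measured 38.0, 42.0 and 38.3 against 56.1, 51.4 and 51.7 (log2 fold change 0.43, adjusted p = 0.000135). Psmf1 gave a log2 fold change of 0.40, Psmd5 of 0.29, Psme4 of 0.26 and Psmd9 of 0.25, all with an adjusted p under 0.05.

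In proliferation and differentiation 4HBP libraries, respectively, Psme2 measured 23.8, 27.1 and 24.5 against 21.2, 20.4 and 19.4 normalized CPM, without overlap. Psme4 measured 90.8, 85.9 and 89.5 against 105, 109.1 and 104.3, and Psmf1 measured 38.0, 37.5 and 41.2 against 51.6, 51.5 and 50.5. Both were higher in every differentiation library, and groups apart were common between the media.

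Of the chaperones of the outer ring, Psmg1 measured 16.1, 19.2 and 14.8 normalized CPM in proliferation and 10.9, 10.3 and 10.9 in differentiation 4HBP libraries, and Psmg2 measured 19.3, 21.3 and 17.9 against 13.8, 15.3 and 12.7. Psmg3 measured 4.85, 5.75 and 6.09 against 7.14, 6.34 and 7.30, and Psmg4 measured 6.41, 7.15 and 5.85 against 7.32, 7.48 and 7.91. The first pair was lower and the second pair higher in every differentiation library, but Psmg3 and Psmg4 did not pass the test. Groups apart were common in this contrast, with 5651 lower and 5737 higher genes of all 15920. Of the base chaperones, Psmd5 measured 44.7, 41.2 and 42.8 against 55.1, 52.4 and 49.9, Psmd9 measured 26.5, 28.5 and 25.7 against 31.4, 32.1 and 32.9, and Psmd10 measured 15.0, 16.2 and 13.5 against 12.6, 10.9 and 9.95, all without overlap.

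Psmb6 measured 98.3, 102 and 85.1 normalized CPM in proliferation and 98.2, 92.1 and 101.1 in differentiation 4HBP libraries, and Psmb7 measured 98.5, 103.6 and 86.8 against 98.4, 93.7 and 94.5, and both overlapped. Psmb6 (0.030, 95% interval -0.15 to 0.21) and Psmb7 (-0.012, 95% interval -0.18 to 0.16) did not pass the test under 4HBP. Psme2 (-0.30, adjusted p = 0.0316) and Psmg2 (-0.49, adjusted p = 0.000608) fell under 4HBP and were not called in vehicle, but no member passed the test of the difference between these contrasts. Psmg1 fell by 0.65 and Psmd10 by 0.42 on the log2 scale, while Psmg3 (0.31, adjusted p = 0.076) and Psmg4 (0.23, adjusted p = 0.127) did not pass. On the TPM scale Psme2, Psmg1, Psmg2 and Psmd10 were not called, and Psmb6, Psmb7, Psmg3 and Psmg4 were higher. The Psmd10 call was lost without proliferation 4HBP replicate 2 (adjusted p = 0.0605) or differentiation 4HBP replicate 3 (adjusted p = 0.0562). The Psme2 call was lost when library totals alone were used and without proliferation 4HBP replicate 2 or differentiation 4HBP replicate 2 or 3.

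Other genes of the pathway also depended on the scale. Of 28 tested genes for inducible subunits, cap partners, assembly, regulation, ubiquitin supply and delivery to the proteasome, 15 fell and 3 rose between the media in vehicle cultures, and 14 fell and 2 rose under 4HBP, where 30.6% and 33.9% of all genes fell, respectively. On the TPM scale 6 were lower and 12 higher in vehicle, and 8 were lower and 14 higher under 4HBP. Of all 16202 genes on that scale, 2026 were lower and 9011 higher in vehicle, and 2699 and 8687 under 4HBP. Pomp, which matures the core, fell by 0.61 in vehicle and by 0.44 under 4HBP on the log2 scale, which was not called on the TPM scale, and the cap deubiquitinase Uchl5 fell by 1.29 and 1.05. Paaf1 was not analysed here.

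Marker genes moved with the medium too. All 7 neural stem cell markers and all 3 markers of dividing cells were lower in differentiation medium in both contrasts on the TMM scale, and on the TPM scale all 3 markers of dividing cells were lower in both and 5 of 7 stem cell markers in vehicle and 4 of 7 under 4HBP, with 1 higher in each. The dividing cell markers had sums of 288 to 751 normalized CPM in proliferation and of 66.4 to 115 in differentiation medium. Oligodendrocyte lineage markers were higher for 3 of 5 in vehicle (5 of 5 on the TPM scale) and for 5 of 5 under 4HBP on both scales. On the TMM scale, 2 of 5 neuron markers rose and 1 fell in vehicle and 3 rose and 1 fell under 4HBP, and of 4 astrocyte markers 2 rose and 2 fell in vehicle and 2 rose and 1 fell under 4HBP. On the TPM scale 3 neuron markers were higher in vehicle and 4 under 4HBP with none lower, and of the astrocyte markers 2 were higher and 1 lower in vehicle and 3 higher and 1 lower under 4HBP. Their part in the differences of the proteasome genes was not tested, and in bulk RNA fewer cells of a type and less RNA per cell cannot be told apart.

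The third comparison asked whether 4HBP changed the proteasome genes in proliferation medium. No member passed the test (0 of 43, edgeR quasi-likelihood test in the 6 proliferation libraries), whereas 7.48% of 14432 genes did. At an unadjusted p under 0.05 there were 2 members, against 25.0% of all genes. Groups did not overlap for 3 higher and 2 lower members, and for 2338 higher and 2178 lower genes of all 14432. DESeq2 also called 0 members, as did limma at unadjusted p under 0.05 with log2 fold changes beyond 0.58 in size. The members' median log2 fold change was -0.033 and that of all genes 0.001. Core genes had a median of -0.12 with 11 of 14 below 0, against 7185 of all 14432 genes. Cap genes had a median of -0.028, activators and inhibitor 0.076 and assembly factors 0.073. Over the 43 members log2 fold changes were between -0.20 and 0.37.

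The 3 members with the lowest p were Psmg2, Psme3 and Psmc5. Psmg2 measured 16.2, 14.9 and 14.2 normalized CPM with vehicle and 19.3, 21.3 and 17.9 with 4HBP, which did not overlap (log2 fold change 0.37, SE 0.11, adjusted p = 0.0745). Psme3 measured 167.7, 149.7 and 168.2 with vehicle and 198.1, 191.7 and 169.4 with 4HBP (log2 fold change 0.20, SE 0.084, adjusted p = 0.173). Psmc5 measured 97.9, 86.8 and 105.2 with vehicle and 109.3, 117.7 and 102.5 with 4HBP, which overlapped (log2 fold change 0.19, SE 0.089, adjusted p = 0.235). Without 4HBP replicate 3, Psmg2 (adjusted p = 0.0387) and Psme3 (adjusted p = 0.0412) were called, and with all 11 libraries in one fit Psmg2 was called (adjusted p = 0.0204).

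The catalytic subunits were not called. Psmb5 had a log2 fold change of 0.073 (95% interval -0.12 to 0.27), Psmb6 of -0.17 (-0.38 to 0.041) and Psmb7 of -0.17 (-0.39 to 0.040). Psmb6 measured 117.6, 99.2 and 104.1 normalized CPM with vehicle and 98.3, 102 and 85.1 with 4HBP, and Psmb7 measured 120.3, 99.97 and 105.5 with vehicle and 98.5, 103.6 and 86.8 with 4HBP. In both the lowest value was that of 4HBP replicate 3 and the highest that of vehicle replicate 1.

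Parts of this order were seen in other members, and members that showed both ends of it were not counted. Of the 43, 26 were lowest in 4HBP replicate 3 (24.8% of all genes were lowest there) and 10 in vehicle replicate 2 (18.8%). The other 4 libraries held the lowest value of 7. A total of 16 were highest in vehicle replicate 1 (14.9% of all genes) and 13 in 4HBP replicate 2 (14.4%). Summed over all members, levels were between 3917 and 4356 normalized CPM with vehicle and between 3651 and 4425 with 4HBP. Without 4HBP replicate 3 the members' median log2 fold change was 0.063. Markers of dividing cells were also lowest in that library, with a sum of 288 normalized CPM against 591 to 751 with vehicle; none of the 3 was called. Of 4 astrocyte markers, 2 fell with 4HBP, with sums between 2560 and 2909 against 3751 to 4454. Their part in the member levels was not tested.

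**Figure D4:**
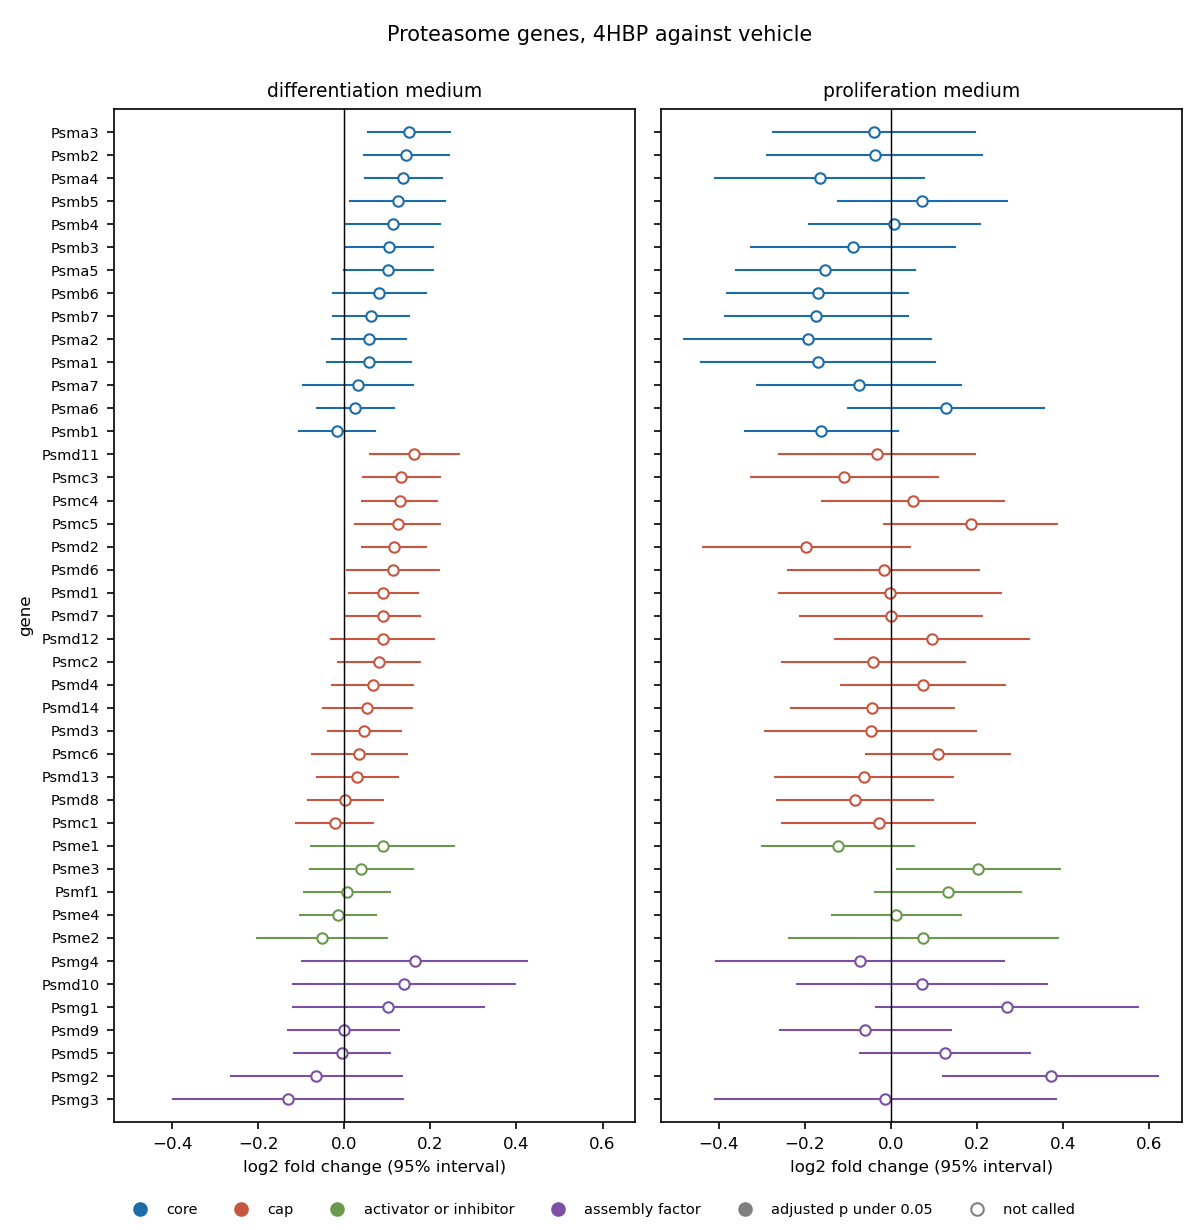
Points give the log2 fold change of the 43 tested genes with 4HBP against vehicle, in differentiation medium on the left and proliferation medium on the right, with 95% intervals as lines and open points where the adjusted p was not under 0.05. All points are open, and 35 of 43 lie above 0 in differentiation medium against 16 of 43 in proliferation medium. Of all genes, 8063 of 15484 and 7247 of 14432 were above 0, respectively.

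The fourth comparison asked the same in differentiation medium. Again no member passed the test (0 of 43, edgeR, 5 differentiation libraries), where 2.42% of 15484 genes did, and DESeq2 and the same limma rule called 0 as well. The differences were small and mostly one way. A total of 35 of 43 members had a log2 fold change above 0, against 8063 of all 15484 genes. The members' median was 0.080 against 0.006 for all genes, and the members' values lay between -0.13 and 0.16. At an unadjusted p under 0.05 there were 14 members, all higher, against 8.82% of all genes that were higher and 7.18% that were lower at this p. Of these 14, 6 were core genes and 8 cap genes, with none among the activators, the inhibitor and the assembly factors. The lowest 4HBP library was above both vehicle libraries in 19 members, of which 10 were core and 8 cap genes, against 17.4% of all genes. Markers of dividing cells moved the same way, with sums of 92.8 to 115 normalized CPM with 4HBP against 66.4 to 88.8 with vehicle and 1 of 3 called (Ccnb1, log2 fold change 0.50, adjusted p = 0.0459). Of 7 neural stem cell markers 1 rose (Fabp7, log2 fold change 0.24, adjusted p = 0.0166), with sums of 4080 to 4126 against 4170 to 4220. Their part in the member differences was not tested.

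The members with the lowest p were Psma3, Psmd2 and Psmd11. Psma3 measured 70.8 and 72.3 normalized CPM with vehicle and 82.9, 78.0 and 77.4 with 4HBP (log2 fold change 0.15, SE 0.045, adjusted p = 0.102). Psmd2, the second scaffold of the cap base, measured 246.8 and 247.9 with vehicle and 274.4, 266.5 and 263.1 with 4HBP (log2 fold change 0.12, SE 0.035, adjusted p = 0.107). Psmd11, a lid subunit, measured 83.6 and 87.1 with vehicle and 92.5, 92.4 and 101.9 with 4HBP (log2 fold change 0.16, SE 0.049, adjusted p = 0.107). In all 3 the groups did not overlap. The 2 vehicle libraries set these comparisons, and 22 of 43 members were lowest in vehicle replicate 1 (25.3% of all genes) and 10 in vehicle replicate 2.

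Among the catalytic subunits, Psmb5 gave 0.12 (95% interval 0.014 to 0.23, adjusted p = 0.249), Psmb6 0.081 (-0.027 to 0.19) and Psmb7 0.062 (-0.027 to 0.15) on the log2 scale. The activators and the inhibitor gave values from -0.052 (Psme2) to 0.089 (Psme1), and the assembly factors from -0.13 (Psmg3) to 0.16 (Psmg4). The intervals of the core and cap genes reached at most 0.27 on the log2 scale, so a rise above that was not within the 95% interval of any of them.

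The fifth comparison tested whether the effect of 4HBP differed between the media. No member was called (0 of 43), against 4.49% of 15920 genes. At an unadjusted p under 0.05 there were 4 members, against 19.9% of all genes. These were Psmg2, whose effect was lower in differentiation medium (difference of log2 fold changes -0.44, SE 0.15, adjusted p = 0.117), and Psmd2 (0.31, adjusted p = 0.2), Psma4 (0.30, adjusted p = 0.234) and Psma5 (0.25, adjusted p = 0.241), whose effects were higher. DESeq2 and the limma rule called 0 members. The core had a median difference of 0.19 with 13 of 14 genes above 0, against 8045 of all 15920 genes. Without proliferation 4HBP replicate 3 the median over all members fell from 0.093 to 0.020.

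Of 5 listed regulators of proteasome genes, 2 transcription factors behaved otherwise in proliferation medium, while Bach1, Ddi2 and Ngly1 were not called. Nfe2l1, which is activated when proteasome activity is short and then induces subunit genes, measured 293.5, 272.8 and 343.8 normalized CPM with vehicle and 400, 438.3 and 450 with 4HBP in proliferation medium (log2 fold change 0.50, SE 0.098, adjusted p = 0.0214). Its relative Nfe2l2, the main factor of the oxidative stress response, measured 180.4, 176.5 and 235.3 with vehicle and 309.2, 323 and 330.9 with 4HBP (log2 fold change 0.70, SE 0.11, adjusted p = 0.0104). In both genes every 4HBP library was above every vehicle library, as in 2338 of all 14432 genes. The calls were lost without vehicle replicate 1 (adjusted p = 0.102 and 0.0679) or 2 (0.103 and 0.0599), and that of Nfe2l1 also without 4HBP replicate 2 (0.0813). The Nfe2l1 call was also lost under the limma rule (log2 fold change 0.54) and with the fold threshold in edgeR (0.50), both under 0.58.

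In differentiation medium Nfe2l1 measured 236.7 and 231.2 with vehicle and 238.4, 234.4 and 252.1 with 4HBP, and Nfe2l2 measured 182.4 and 188.5 with vehicle and 169.6, 178.7 and 174.8 with 4HBP. The effect of 4HBP was lower there by 0.45 for Nfe2l1 (adjusted p = 0.0476) and by 0.79 for Nfe2l2 (adjusted p = 0.00815). These were the 2 genes of the 28 in the pathway list that were called in proliferation medium and the 2 called for the difference between media. None of the 28 was called in differentiation medium. Of all genes tested, 7.48% were called in proliferation medium, 4.49% for the difference and 2.42% in differentiation medium. The list was therefore not called more often than all genes by a clear margin. The 5 members with an antioxidant response element core within 250 bases before the start gave log2 fold changes with 4HBP in proliferation medium of 0.073 (Psmb5), -0.17 (Psmb6), 0.11 (Psmc6), -0.059 (Psmd9) and 0.095 (Psmd12), none of them called.

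**Figure D5:**
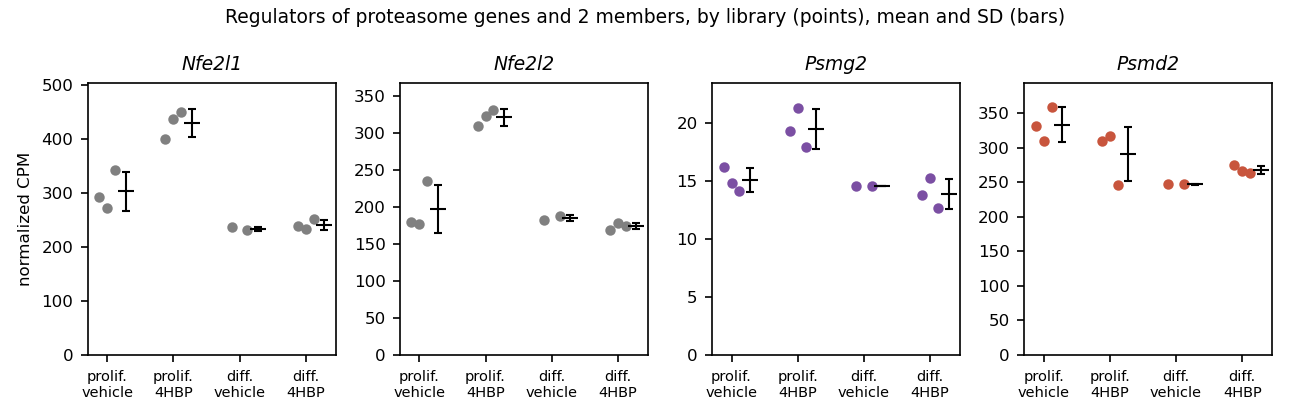
Points give normalized CPM in each of the 11 libraries for the regulators Nfe2l1 and Nfe2l2 and the members Psmg2 and Psmd2, with the mean and SD of each group beside them. Nfe2l1 lies between 400 and 450 with 4HBP in proliferation medium and at most 343.8 in all other libraries, whereas the Psmd2 groups overlap in proliferation medium.

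The inducible subunits, which replace the catalytic ones in the immunoproteasome, were scarce. Summed TPM of Psmb8, Psmb9 and Psmb10 was 4.36% to 8.54% of that of Psmb5, Psmb6 and Psmb7, with the highest share in proliferation 4HBP replicate 3. In that library Psmb8 measured 5.34 normalized CPM, against 0.833 to 2.32 in the other 10 libraries.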

How the data were processed

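Poly(A) RNA was sequenced on 11 libraries as stranded paired-end reads. The authors trimmed reads with cutadapt and estimated levels with RSEM (1.3.0) on Bowtie2 (2.2.9) alignments to mm10 with GENCODE vM17. The deposited files hold expected counts, TPM and FPKM per gene. FPKM and TPM differ by a constant factor in each library, so the core to cap ratio is the same in both by definition. Names were matched to 53706 of 53801 gene IDs (99.8%) with a later GENCODE release of the same build. The members and lists were chosen with earlier results of these data known.

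Expected counts were rounded to whole numbers. Genes were filtered with filterByExpr, scaled by TMM and tested with the edgeR (4.0.16) quasi-likelihood test in R 4.3.3. Treatment effects were fitted on the libraries of 1 medium, and the contrasts between media and the difference of effects on all 11 libraries in one fit. A call required a Benjamini-Hochberg adjusted p under 0.05, and intervals are 95%. The steps were tested on simulated data with equal mean levels in all groups, apart from a small set of genes changed evenly both ways. Such data cannot decide how libraries of different media should be scaled. Alternatives were DESeq2 (1.42.0) size factors and test, limma (3.58.1) on log2(CPM + 1) at unadjusted p under 0.05 with log2 fold changes beyond 0.58 in size, library totals, no filter, that fold threshold in edgeR, a replicate block, leaving out each library and the TPM scale.

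Catalytic subunits, activators, the inhibitor and assembly factors were named with their values, as were up to 5 called members in each direction by size of change, or the 3 with the lowest p where fewer than 3 passed. Other members were named by role after their values were seen. Psme2b and Psmc3ip do not meet the naming rule and were left out. Some genes of the pathway list are not reported here by name.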

Additional observations from a re-analysis of the deposited data

Results flagged for a closer look

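Nfe2l1 and Nfe2l2, the 2 listed transcription factors of the Nfe2l family, responded to 4HBP differently in the 2 media. This was by the test of the difference itself (edgeR quasi-likelihood test on all 11 libraries). The effect in differentiation medium minus that in proliferation medium was -0.79 on the log2 scale for Nfe2l2 (adjusted p = 0.00815) and -0.45 for Nfe2l1 (adjusted p = 0.0476). Every 4HBP library was above every vehicle library in proliferation medium for both genes, as for 2338 of all 14432 genes. These are the same values that gave the call in that medium. For Nfe2l2 the call was lost without differentiation vehicle replicate 2 (adjusted p = 0.0567). For Nfe2l1 it was lost in 8 of the 11 fits that each left out 1 library (adjusted p between 0.0821 and 0.202), with DESeq2 size factors (0.0521) and under the limma rule, where its size was under the fold threshold (adjusted p = 0.116). It was also lost with that fold threshold in edgeR. No member of the proteasome list passed this test.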

How the results depend on the processing

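Of 56 fold changes of single genes, all picked by a call or a low p, none changed direction except on the TPM scale. There Psmb7 (0.19) and Nfe2l1 (0.061) in vehicle and Psme2 (0.076) under 4HBP turned between media, and none of these passed. Members outside this choice turned as well in vehicle, such as Psmd4 (-0.37 to 0.066). Psmd8 was called lower on the TMM scale (-0.22) and higher on the TPM scale (0.21). Of the members that fell on the TMM scale, 16 in vehicle and 13 under 4HBP did not pass on the TPM scale. Members called with 4HBP in proliferation medium numbered 0 to 2 with 1 library left out and 1 with all 11 libraries. In differentiation medium there were 1 without the filter (Psmd11, adjusted p = 0.0239) and 2 with the replicate block (Psma3, adjusted p = 0.0172, and Psmd2, 0.0141). Between media, limma (unadjusted p under 0.05 and the fold threshold) called 6 members in vehicle and 6 under 4HBP, edgeR with the fold threshold (absolute log2 fold change over 0.58) 8 and 8, and fits without 1 library 21 to 34 and 23 to 32. The TPM scale, chosen after seeing the data, called 24 and 30 members, and 11037 and 11386 of all 16202 genes. The difference of effects gave 0 members under every alternative run.

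Counts over all genes moved by over 1.5 times for several alternatives. In proliferation medium 1080 genes became 2663 with all 11 libraries, 521 with the replicate block, 578 with limma, 507 with the fold threshold, 1623 with DESeq2 and 115 to 1440 with 1 library left out. In differentiation medium 374 became 0 with all 11 libraries (the shared spread is then that of both media), 800 without the filter, 793 with the block, 49 with limma, 57 with the fold threshold and 76 to 283 with 1 library left out. The difference of effects went from 715 to 1618 without the filter, 464 with the fold threshold and 124 to 1099 with 1 library left out, and the contrast in vehicle from 9771 to 5219 with limma and 5967 with the fold threshold.

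The labels number the replicates alike in each group, but same-numbered libraries did not deviate together, with correlations between -0.145 and 0.129, so the numbers were not taken as pairs. With the replicate block 30 members were called between media in vehicle (6 higher, 24 lower), 26 under 4HBP (7 higher, 19 lower), 0 with 4HBP in proliferation medium and 2 in differentiation medium. The block also took the Psmd9 call in vehicle (adjusted p = 0.0837).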
